A study of Rattus norvegicus with 9 samples.

Results

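Of 28015 probes whose names begin with ASRN6AP1B on a rat m6A epitranscriptomic microarray, 1813 probes were selected on their measured signals in control cortex as strongly enriched in the m6A immunoprecipitate. Each had to lie well above background in both channels on the 3 control arrays and to have a mean log2(IP/Sup) of at least 1.5 on them. IP is the signal of the RNA captured by the anti-m6A antibody, and Sup is the signal of the RNA left in the supernatant. The signals used for this choice were those processed by the scanner software, called the processed scale below. In all, 18225 probes of this name class lay well above background on the control arrays, 16412 of them stayed below 1.5, and the whole array carried 41186 probes for transcripts. Because the control values chose the enriched probes, their height in control rats is no finding, and every difference from control is given as a description without a test.

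N6-methyladenosine (m6A) is a methyl mark on adenosines inside mRNAs and long non-coding RNAs. Writers, a complex around METTL3 and METTL14, place it, the demethylases FTO and ALKBH5 remove it, and reader proteins of the YTH family bind it and influence splicing, translation and decay. Brain is rich in m6A, and transcripts with synaptic roles are among those known to carry it. In an m6A immunoprecipitation, a transcript with a large share of its copies marked moves from the supernatant to the precipitate, so its IP/Sup ratio is high.

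The tissue was cortex from male Sprague Dawley rats, bought at 8 weeks of age, with 3 rats in each of 3 groups and 1 array per rat. Control rats, labelled normal, had the neck surgery without the filament that closes the middle cerebral artery. Model rats had cerebral ischemia-reperfusion injury, made by 2 h of occlusion of that artery and reperfusion, and were sampled at day 7. BHD rats had the same injury and received Buyang Huanwu Decoction (BHD), a Chinese herbal formula, for 7 days, at a dose not given in the sources used here. Cortex of the ischemic side was taken. This model is a filament closure of a large artery in young male rats, and the dissected tissue mixes neurons, glia, vessels and invading cells.

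The IP RNA carried the red dye Cy5 and the Sup RNA the green dye Cy3 on every array, with no dye swap, so any bias of a probe towards 1 dye remains in its level and cancels between groups. Slides were inferred from the scan times alone, with arrays of the same scan time taken as 1 slide. By this, slide 1 held the 3 control arrays and model replicate 1. Slide 2 held model replicates 2 and 3 with BHD replicates 1 and 2, and slide 3 held BHD replicate 3. Between 70.9% and 82.7% of transcript probes per array were well above background in IP and between 58.4% and 72.7% in Sup. The precision of each comparison is set by the number of arrays, 3 per group. The files pair none of the 1813 enriched probes with a gene name, an accession or a sequence, so they are described as probes, and pathway genes and cell type markers could not be counted among them. Map2, a neuronal microtubule gene, and Dlg4, a postsynaptic scaffold gene, had probes of their own with an accession, and both were well above background in the control cortex.

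Among the enriched probes the control mean on the processed scale ran from just above 1.5 to 5.08 in log2(IP/Sup), with a median of 2.01. Of the 1813, 884 lay between 1.5 and 2, 748 between 2 and 3, 159 between 3 and 4, and 22 at 4 or more. The probe just inside the threshold read 1.63, 1.49 and 1.38 in the 3 control rats, and the probe just outside it read 1.35, 1.56 and 1.59. Both straddled 1.5 within their own group, so membership near the threshold rested on differences smaller than the spread between rats. Each enriched probe had 1 spot per array, none was saturated, 1805 cleared background in IP and Sup in each of the 9 rats, and 324 had an outlier spot on at least 1 array.

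The high IP/Sup ratio was still present in all 9 rats. On the processed scale the median over the enriched probes was 2.15, 2.03 and 1.98 in the control rats, 2.09, 1.84 and 1.68 in the model rats, and 2.02, 1.81 and 1.78 in the BHD rats. Model replicate 1 and BHD replicate 1 fell inside the control range, and the other 4 injured rats fell below it. The mean of the 3 medians was 2.05 ± 0.09 in control, 1.87 ± 0.21 in model and 1.87 ± 0.14 in BHD (SD, n = 3), so model and BHD rats overlapped. The other probes of the class had medians between -0.17 and -0.11 on the same arrays. Expressed as the IP share, which is IP/(IP + Sup) of the processed signals, the median enriched probe stood at 80.6% ± 0.943 in control, 78.5% ± 2.38 in model and 78.5% ± 1.56 in BHD (SD, n = 3). The 2 fractions were amplified and labelled separately, so this share orders values and is not a calibrated fraction of methylated molecules.

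**Figure D1:**
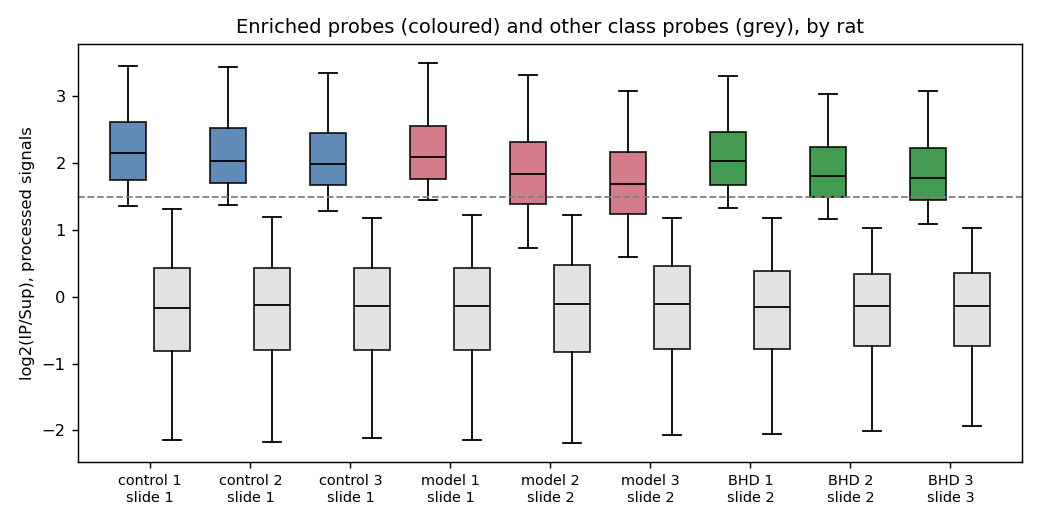
Processed log2(IP/Sup) in each of the 9 rats, for the 1813 enriched probes (coloured boxes) and the 16412 other class probes (grey boxes). The slide under the name of each array was inferred from the scan times. Boxes show the median and the middle 50% of probes, whiskers the 5th and 95th percentiles, and the dashed line the threshold of 1.5, and the enriched medians run from 2.15 in control replicate 1 to 1.68 in model replicate 3.

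Counted by probe, most of the enriched set stayed at or above the threshold of 1.5, though mostly lower than in control. The group mean was at or above 1.5 on the processed scale for 1356 of the 1813 (74.8%) in model rats and for 1443 (79.6%) in BHD rats. All 3 rats were at or above 1.5 for 1306 probes in control, 1044 in model and 1120 in BHD, and 777 probes were there in all 9 rats. No rat reached 1.5 for 96 probes in model and 146 in BHD. The group mean was between 1 and 1.5 for 377 probes in model and 360 in BHD, and between 0.5 and 1 for 76 and 9. A group mean under 0.5 was rare, seen for 4 probes in model and 1 in BHD. Single rats read 0 or less for 5 probes in model replicate 2, 16 in model replicate 3 and 1 in BHD replicate 1. The group mean was above the control mean for 530 probes in model and 290 in BHD. All 3 rats lay above every control rat for 47 probes in model and 13 in BHD. They lay below every control rat for 104 probes in model and 321 in BHD. Because the control values were picked for being high, a lower value elsewhere follows in part from the choice alone.

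To take that effect out of the control value, the choice was repeated with each control rat left out in turn. The left-out control rat then had a median of 2.07, 2.03 or 1.95 on the processed scale over the probes chosen on the remaining pair, and between 79.1% and 84.6% of those probes reached 1.5 in it. Against this held-out rat the median probe differed by -0.06, -0.24 or -0.16 in model rats and by -0.17, -0.20 or -0.10 in BHD rats. The differences were negative in both groups for each left-out rat, and they were small beside the level near 2.

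The share of probes at or above 1.5 showed which animals carried the lower values. It was 89.2%, 89.4% and 85.8% in control rats, 92.5%, 69.9% and 60.6% in model rats, and 87.1%, 73.8% and 70.9% in BHD rats. Model replicate 1, which shared its slide with the controls, had the highest share of all, while model replicates 2 and 3 had the lowest shares. BHD replicate 1, at 87.1%, shared its slide with these 2 low model rats. What set single rats apart was not tested. After loess normalization within arrays, called the loess scale below, the medians were 1.68, 1.56 and 1.56 in control, 1.71, 1.098 and 1.22 in model and 1.65, 1.48 and 1.40 in BHD. The same rats were low on both scales. Within slide 1, model replicate 1 minus the mean of the controls had a median of 0.09 on the loess scale, where the 3 model rats together gave -0.25.

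How many probes stayed above 1.5 depended on how far above it they had been chosen, as the choice itself dictates. Of the probes between 1.5 and 2 in control, 54.8% had a model mean and 59.2% a BHD mean of at least 1.5 on the processed scale. Of those between 2 and 3, 92.4% did so in model and 98.8% in BHD, and all of the probes at 3 or more did so in both groups. The order of the probes was similar between groups, with Spearman's rho of 0.779 between control and model means and 0.891 between control and BHD means over the 1813 probes. These coefficients are across probes of shared arrays and describe the set only. Both groups had a mean of at least 1.5 for 1168 probes, BHD alone for 275, model alone for 188 and neither for 182.

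**Figure D2:**
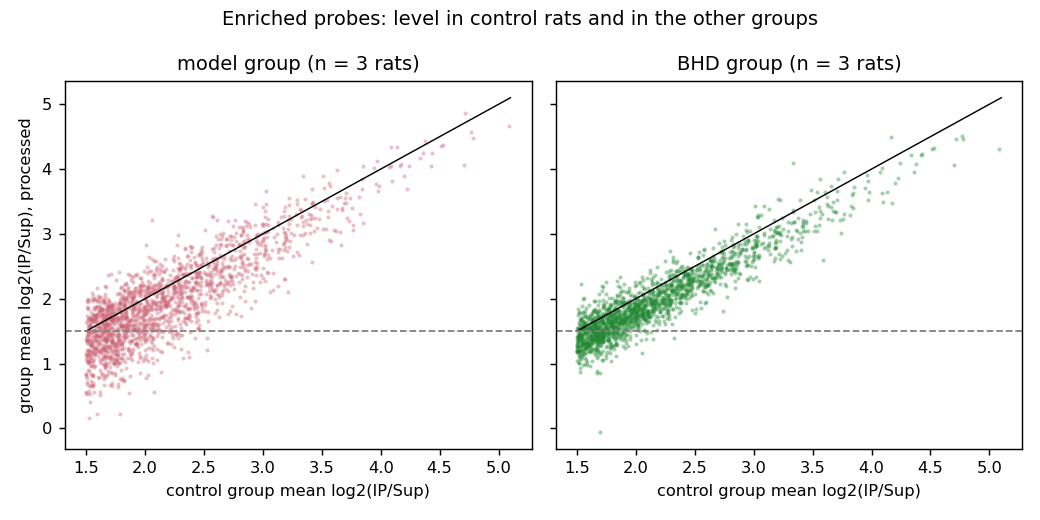
Group mean processed log2(IP/Sup) of each of the 1813 enriched probes in model rats (left) and BHD rats (right) against the control mean, 1 point per probe and 3 rats per mean. The solid line marks equal values and the dashed line the threshold of 1.5, above which 1356 probes lie in model and 1443 in BHD.

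The probe with the highest control ratio, ASRN6AP1B10001596211, read 5.28, 5.08 and 4.90 in control rats, 5.13, 4.68 and 4.20 in model rats and 4.83, 3.88 and 4.21 in BHD rats on the processed scale. Model replicate 1 lay within the control range and every other injured rat lay below it, yet the mean IP share of this probe over the model and BHD arrays was still 95.6%. Its BHD and model values overlapped, and the direction turned with the scale, since the BHD mean was lower on the processed scale (4.31 against 4.67 in model) and higher by 0.51 ± 0.32 (SE) on the loess scale, with an adjusted p of 0.557 by limma. The next highest read 4.73, 4.82 and 4.79 in control, 5.03, 4.38 and 4.01 in model and 4.62, 4.21 and 4.54 in BHD on the processed scale. The model rats overlapped both other groups, while every BHD rat lay below every control rat.

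Set against control on the loess scale, the enriched probes were lower in both groups by the median. Model minus control had a median of -0.25 over the 1723 enriched probes with enough values, and 14.9% of them were positive. A difference of at least 1.5-fold was seen for 183 (4 higher and 179 lower), where 2.44% of all 31640 probes were that far apart, 0.477% higher and 1.96% lower. BHD minus control had a median of -0.12 over 1747 probes, with 28.6% positive. There 41 probes (5 higher and 36 lower) were at least 1.5-fold apart, against 1.48% of 31909 probes, 0.972% higher and 0.511% lower. Probes depleted to the mirrored extent, with a control mean of -1.5 or less, moved the other way. Their median was 0.16 in model minus control (75.6% positive) and 0.13 in BHD minus control (70% positive). Ratios at both extremes were thus less extreme than in control by the median. The rule used the control arrays for both sets, so nothing is read from these counts and medians. Both comparisons share the same 3 control rats.

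How abundant these RNAs were was read from the total signal, IP + Sup, on the 6 arrays that the choice did not use. The median enriched probe had a processed total of 6426, with the middle 50% of probes between 2474 and 17325, and the other probes of the class had a median of 2505. The median enriched probe stood at the 66.2nd percentile of the class, and 71.5% of enriched probes were above the class median. The higher total lay in the IP signal, whose median was 4933 for enriched probes and 1123 for the rest, while the median Sup signal was 1251 and 1256. A probe's brightness depends on its own sequence as well as on its RNA, and fewer cells of a type and less RNA per cell cannot be told apart in pooled tissue, so this is an ordering of signals and no measure of copies. The choice demanded a ratio of at least 1.5 with Sup well above background, which keeps dim probes out of the set.

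Enriched probes were scarce among dim probes and most frequent just below the top. When the class was cut into 10 equal parts by total signal, they made up 0.329% of the dimmest part, 12% of part 5, 16.7% of part 9 and 10.2% of the brightest. Probes depleted from the precipitate to the mirrored extent, with a control mean of -1.5 or less, numbered 1723 and also lay high, with a median total of 7374. Their share was 4.12% in the dimmest part and highest in the brightest, at 19%. The brightest enriched probe had a mean total of 812691, and its ratio on the processed scale was 1.53, 1.82 and 1.93 in control, 1.79, 1.16 and 2.05 in model and 1.71, 1.12 and 0.97 in BHD rats. Its groups overlapped.

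**Figure D3:**
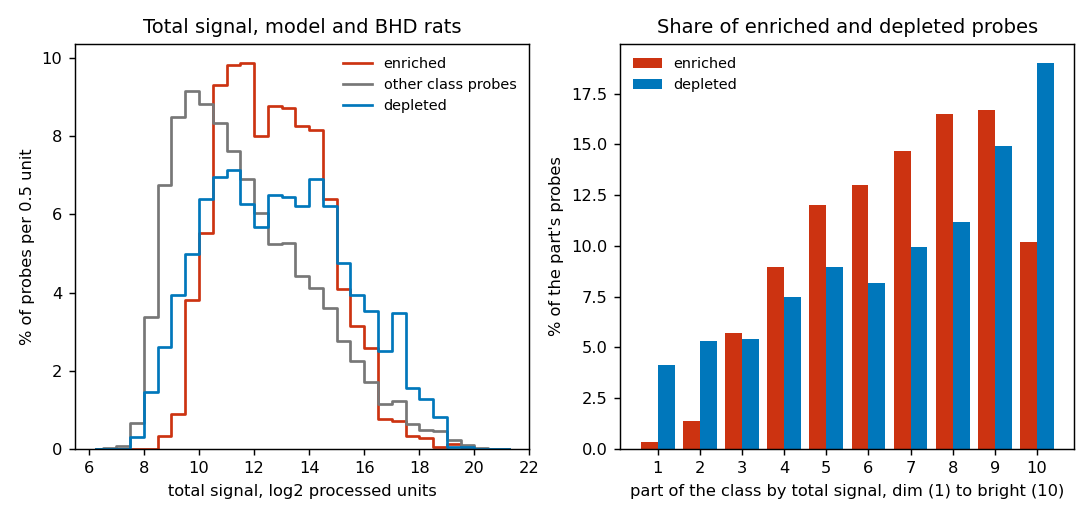
Left, total signal (log2 of IP + Sup in processed units, averaged over the 6 model and BHD arrays) of enriched, other and depleted probes as percent of probes per 0.5 unit, where "other" holds the 16412 class probes below 1.5. Right, percent of each of 10 equal parts of the class, from dim to bright, that was enriched or depleted, where enriched probes peak at 16.7% in part 9 and depleted probes at 19% in the brightest.

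On the processed scale the median log2 total of the enriched probes was 12.45, 12.24 and 12.43 in control, 12.73, 12.28 and 12.42 in model and 12.71, 12.84 and 12.76 in BHD rats. All BHD rats lay above all control rats, and model replicate 1 lay with the BHD rats. The other probes of the class had a mean of medians of 11.17 in control, 11.30 in model and 11.26 in BHD rats on that scale. After loess and quantile scaling of the average signal, the median log2 total of the enriched probes was 9.91, 9.88 and 9.71 in control, 9.86, 9.87 and 9.82 in model and 9.89, 10.02 and 10.13 in BHD rats. BHD replicates 2 and 3 lay above all other rats. Model minus control had a median of -0.03 in log2 total over the enriched probes and -0.02 over all probes, and 58 (29 higher and 29 lower) differed at least 1.5-fold, where 1.83% of all probes did (1.19% higher and 0.638% lower). BHD minus control had a median of 0.06, against -0.04 over all probes, and 125 (81 higher and 44 lower) differed at least 1.5-fold, where 7.62% of all probes did (2.39% higher and 5.24% lower). These counts are descriptions, for the control signals entered the choice.

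BHD rats against model rats is the comparison that the choice did not use. Of 1771 enriched probes tested by limma on the loess scale, in a fit of all 9 arrays, 114 (6.44%) were called, meaning a 1.5-fold difference or more with an unadjusted p below 0.05, 70 higher and 44 lower with BHD. Group and slide were partly tied, and with slide as a block 548 were called (519 higher) where 7.58% of all probes were, and with the replicate number as a block 222 (180 higher) where 4.06% were. Without a block, over all 32819 probes tested, 2.64% were called, 1.29% higher and 1.36% lower. Among the other probes of the class the share called was 3.57%, and among the depleted probes it was 6.67%. After Benjamini-Hochberg adjustment over all probes tested by limma, 0 of the 114 remained, the smallest adjusted p being 0.428, while 240 enriched probes had an unadjusted p under 0.05 in that test. The other 42 enriched probes had too few values once outlier spots were left out.

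The median BHD-minus-model difference over the enriched probes was 0.14 on the loess scale, with the middle 50% between -0.07 and 0.36, and 66.2% were positive, against a median of 0.003 over all probes tested. This sign depended on the scaling, since on the processed scale the median was -0.03, equal to that of all probes, and 843 of 1771 were positive. The processed scale called 134 enriched probes (7.57%), 41 higher and 93 lower, where 10.5% of all probes were called, 5.01% higher and 5.47% lower. Both scales called 30 of the same probes higher and 36 of the same probes lower, and 0 probes were called in opposite directions. The loess share thus lay above its background and the processed share below its own. The median difference was 0.0008 with normexp and median centring and 0.003 in the deposited table. Leaving out model replicate 1 raised the loess median to 0.30 and the processed median to 0.08, and within slide 2 these were 0.35 and 0.11, whereas the loess median was 0.01 without model replicate 2 and 0.08 without BHD replicate 1.

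Single rats also moved the number of calls on the loess scale. Without model replicate 1 there were 437 calls, 395 of them higher, and without model replicate 2 there were 39, without model replicate 3 there were 47, and without BHD replicate 1 there were 49, with 1, 7 and 6 of them higher. Over all probes in these 4 fits, 6.58%, 1.46%, 1.62% and 2.3% were called. In the 1602 enriched probes with all 6 values on the loess scale, the 3 BHD rats lay entirely on one side of the 3 model rats for 188 (11.7%), 50 higher and 138 lower. That share was under the 16.6% of all probes, of which 6.46% were higher and 10.2% lower. The SD between rats of a group was wider for enriched probes than for the other probes of the class on the loess scale. Its median was 0.355 in model and 0.191 in BHD, against 0.163 and 0.137. Depleted probes, with 0.283 and 0.237, also had a wide spread, and in BHD rats it exceeded that of the enriched probes.

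**Figure D4:**
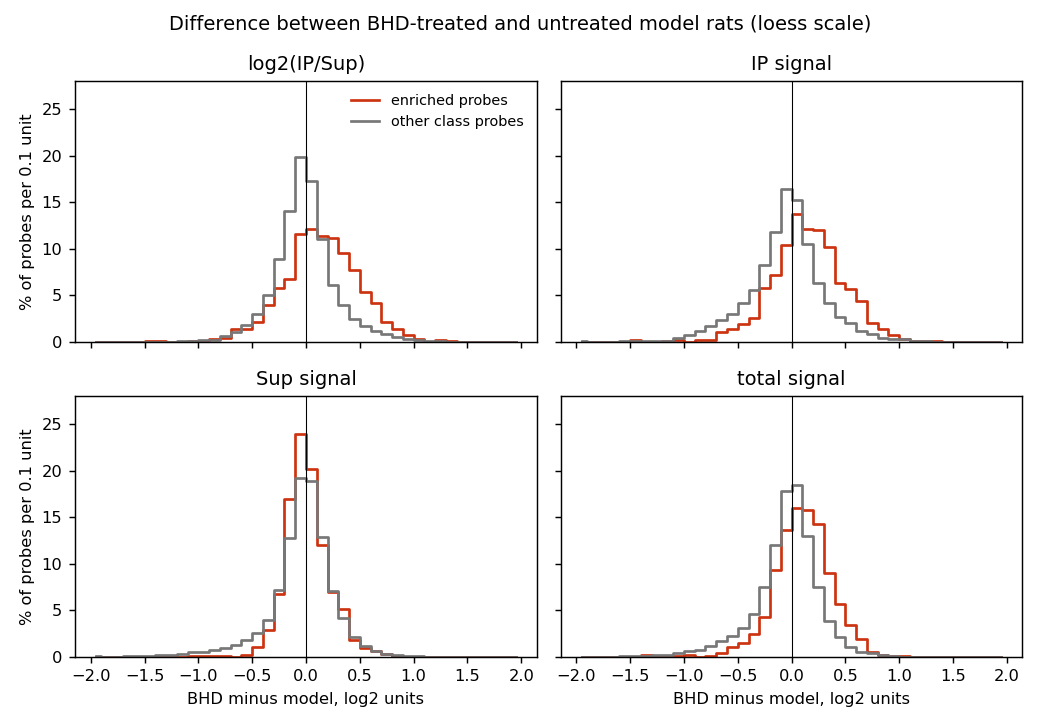
Distribution of the BHD-minus-model difference on the loess scale, in log2 units, as percent of probes per 0.1 unit, for 1771 enriched probes and 16271 other probes of the class. The enriched probes are shifted to positive values in log2(IP/Sup), IP signal and total signal, with medians of 0.14, 0.15 and 0.10. In Sup signal they lie around 0. On the processed scale, not drawn here, the median in log2(IP/Sup) was -0.03 for the enriched probes and -0.03 over all probes tested.

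The signals behind the ratio differed in the IP channel more than in Sup. For the IP signal limma called 124 enriched probes (106 higher and 18 lower), 7% of those tested, where 5.23% of all probes were called, 1.51% higher and 3.72% lower. For the Sup signal it called 3, all higher, where 2.98% of all probes were called, 0.256% higher and 2.72% lower. The total signal gave 36 calls (27 higher and 9 lower), where 3.25% of all probes were called, 0.299% higher and 2.96% lower. As shares of the enriched probes tested, calls were 5.99% higher and 1.02% lower in IP, 0.169% and 0% in Sup, and 1.52% and 0.508% in total signal. No enriched probe passed the Benjamini-Hochberg adjustment by limma for any of the 3, with smallest adjusted p of 0.249, 0.592 and 0.229, while 324, 34 and 239 had an unadjusted p under 0.05. BHD and model rats did not overlap in total signal for 365 of 1602 enriched probes (22.8%), 322 higher and 43 lower, beside 22% of all probes, 8.3% higher and 13.7% lower. In the deposited table of normalized signals, limma called 47 of the 1813 enriched probes higher and 37 lower for IP, 1 higher and 10 lower for Sup, and 17 higher and 27 lower for total signal, so the direction of the Sup and total calls turned with the scaling. Among all its probes 12.5%, 9.84% and 10.3% were called, above the shares of the enriched probes.

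The 70 enriched probes called higher with BHD were mostly those that read low in 2 of the model rats. Their median on the loess scale was 2.02, 1.34 and 1.28 in control rats, 1.55, 0.51 and 0.62 in model rats and 1.94, 1.59 and 1.61 in BHD rats. Model replicates 2 and 3 were low, while model replicate 1 stood near the BHD rats and control replicate 1 lay above the BHD rats with the other 2 controls below them. BHD and model rats did not overlap for 22 of the 70, where BHD lay wholly above model for 3.12% of enriched and 6.46% of all probes. For 69 of the 70 the model mean was below the control mean, and for 61 the BHD mean was above the control mean. Over all enriched probes, 14.9% were above control in model and 28.6% in BHD. The call itself picks probes low in model and high in BHD, so these counts are a description only. In the same 70 the IP signal was called higher for 36 and the Sup signal lower for 0, with median differences of 0.65 and -0.08.

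The 44 called lower had another profile. Their median on the loess scale was 1.67, 2.36 and 2.55 in control rats, 2.33, 2.55 and 2.45 in model rats and 1.78, 1.77 and 1.65 in BHD rats. All model rats were high and all BHD rats low, and control replicate 1 lay with the BHD rats and apart from the other 2 controls. The same order held on the processed scale, at 1.77, 2.46 and 2.53, then 2.44, 2.67 and 2.51, then 1.78, 1.84 and 1.81. BHD and model rats did not overlap for 38 of the 44, where BHD lay wholly below model for 8.61% of enriched and 10.2% of all probes. The call itself favours groups that lie apart. The IP signal was called lower for 12 and the Sup signal higher for 2, with median differences of -0.45 and 0.30. Control replicate 1 had received no BHD, and what set it and the BHD rats apart from the rest was not tested.

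**Figure D5:**
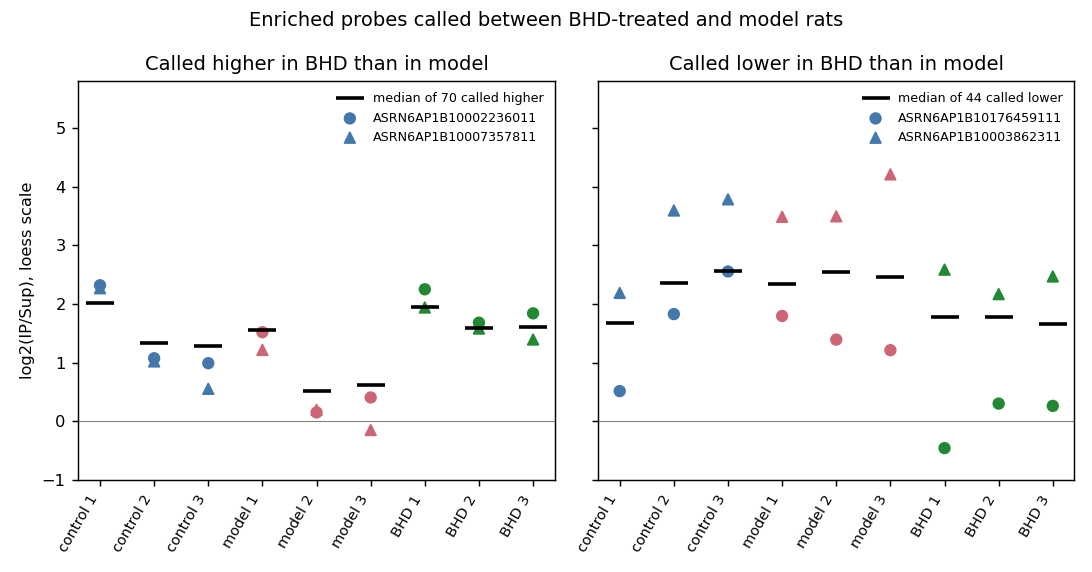
Log2(IP/Sup) on the loess scale in each of the 9 rats, for the enriched probes called higher (left) or lower (right) with BHD than in model, as the median over the 70 or 44 probes (black bars) and for 2 single probes each (points, coloured by group). On the left model replicates 2 and 3 are lowest, with medians of 0.51 and 0.62, and on the right control replicate 1 lies with the BHD rats at 1.67.

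The 2 largest differences in each direction, among called probes whose groups did not overlap, are given by their array names. ASRN6AP1B10002236011 read 2.32, 1.07 and 0.99 in control, 1.52, 0.15 and 0.40 in model and 2.25, 1.68 and 1.84 in BHD rats on the loess scale. All BHD rats exceeded all model rats, and the control rats spanned both. The difference was 1.23 ± 0.43 (SE), with an adjusted p of 0.428 by limma and an exact two-sided permutation p of 0.1, the smallest that 3 against 3 rats allow. ASRN6AP1B10007357811 read 2.27, 1.02 and 0.55 in control, 1.22, 0.19 and -0.15 in model and 1.94, 1.58 and 1.39 in BHD rats, a difference of 1.22 ± 0.46. It had the same layout, with control replicate 1 highest.

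ASRN6AP1B10176459111 read 0.51, 1.83 and 2.55 in control, 1.79, 1.39 and 1.21 in model and -0.46, 0.30 and 0.26 in BHD rats on the loess scale. Its precipitate share was thus near even in BHD rats, and it was the enriched probe with the lowest BHD mean, -0.06 on the processed scale. The difference of BHD from model was -1.43 ± 0.46 (SE), with an adjusted p of 0.428 by limma. ASRN6AP1B10003862311 read 2.19, 3.59 and 3.78 in control, 3.49, 3.49 and 4.21 in model and 2.58, 2.17 and 2.47 in BHD rats, a difference of -1.32 ± 0.39. In both, control replicate 1 was far below the other controls and nearer to the BHD rats.

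On the loess scale, brightness separated the 2 directions. When the enriched probes were cut into 4 equal parts by total signal, the dimmest part had 17 called higher and 0 lower on the loess scale, the second 27 and 1, the third 23 and 8, and the brightest 3 and 35. The median difference was 0.17, 0.20, 0.15 and -0.04 from dim to bright on that scale. On the processed scale the same parts had 19 and 24, 13 and 13, 8 and 22, and 1 and 34. There the lower calls were nearly as many in the brightest part and more in every dimmer part. The higher calls were similar in number in the dimmest part and fewer in the other parts. Dim probes were thus called in both directions on the processed scale. Other class probes as bright as the brightest part also had more calls lower than higher, 223 against 55 of 2865 on the loess scale, and 163 against 51 on the processed scale. Depleted probes of that brightness had 33 lower and 22 higher of 564 on the loess scale, and 20 lower and 22 higher on the processed scale. Dimmer depleted probes had 45 higher and 13 lower of 1131 on the loess scale, and 119 higher and 23 lower on the processed scale. On the loess scale, more higher than lower calls among dimmer probes were therefore not particular to the enriched set. On the processed scale the dimmer 3 parts of the enriched probes had 40 higher and 59 lower of 1340, unlike the dimmer depleted probes.

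The array names of the enriched probes held one more regularity. The class name is followed by a number whose meaning the files do not give. Among class probes well above background, 1282 of 10576 (12.1%) were enriched where that number began with 100, against 531 of 7649 (6.94%) where it began with 101 to 109, falling to 3.54%, 1.99% and 1.46% for 107, 108 and 109. The 2 blocks also differed in brightness, with a median log2 total of 12.2 and 10.7. Of 1247 tested enriched probes starting with 100, 67 were called higher and 27 lower with BHD on the loess scale. Of the 524 others tested, 3 were called higher and 17 lower. The median difference was 0.20 in the first block and 0.04 in the other. Over all probes tested, 1.29% were called higher and 1.36% lower. Calls over all probes of each name block were not counted, so the split cannot be tied to the enriched probes. Brightness moved with the name block, and the part of either in the calls was not tested.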

How the data were processed

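The authors extracted spot intensity values from the scans of 9 arrays of 2 colours with Agilent Feature Extraction 11.0.1.1, and deposited them. The deposited median intensity per spot carries no normalization, while for the processed intensity that software had subtracted background and balanced the dyes within an array. The authors also deposited normalized log2 signals for 32860 probes, used here as an alternative, with all 1813 enriched probes in it. The enriched probes, lists and comparisons were chosen with earlier results of these data known.

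The processed scale is log2(red/green) of the processed intensity. For the loess scale, median intensity was corrected with normexp (offset 50), control spots and outlier spots were left out, and loess was run within arrays. IP, Sup and log2(IP + Sup) were taken after the Aquantile step between arrays. limma 3.58.1 in R 4.3.3 (with data.table at 1.17.8) was fitted on all 9 arrays for probes that cleared background in either channel on 3 or more of the 6 model and BHD arrays, with 2 or more values per group. The thresholds for a call, a 1.5-fold difference and an unadjusted p below 0.05, follow the study's methods. The rule for probes given by name took the highest control ratio, the threshold neighbours, the brightest, and the 2 largest non-overlapping called differences each way. On simulated data for BHD against model over 32819 probes, 95 of 100 2-fold and 100 of 100 4-fold differences were recovered. Of the unchanged probes, 0.711% were called. These rates are over all probes and were not obtained for the enriched probes, whose spread between rats was wider than in the rest of the class. Tables and plots used Python 3.11.15, pandas 2.3.3 and matplotlib 3.10.9. Samples are separate rats by their labels. Alternatives covered background correction, normalization, filter, adjustment, arrays in the fit, replicate and slide blocks, the deposited table, and each rat left out. Values within a slide and against a held-out control were added after seeing the data. Same-numbered model and BHD rats had deviations correlated at 0.598, 0.0363 and 0.253, and the numbers were not treated as pairs. Gene lists and cell type markers could not be applied, since the probes carry no gene names.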

Additional observations from a re-analysis of the deposited data

How the results depend on the processing

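For log2(IP/Sup) of BHD against model, 114 enriched probes were called. The count was 294 (293 higher) with normexp and no normalization within arrays, 50 (9 higher) with normexp and median centring, 0 with Benjamini-Hochberg adjusted p, 222 (180 higher) with the replicate block, 548 (519 higher) with slide as a block, and 39 to 437 when each rat was left out in turn. Over all probes these settings called 6.58%, 1.3%, 0%, 4.06% and 7.58%, and 1.46% to 6.58% by leaving out a rat, beside 2.64%. It stayed within 1.5 times on the processed scale (134), with processed signals centred (137, 32 higher) and in the deposited table (83, where 8.78% of all probes were called), but the split turned to mostly lower calls in these 3, and with the 6 arrays alone it was 133 (88 higher). The IP signal gave 124 calls, 0 after adjustment and 241 with the slide block. Leaving out a rat gave 56 (without model replicate 2) to 205 (without model replicate 1). Over all probes these IP settings called 5.23%, 0.00305%, 5.89%, 2.64% and 7.47%. The Sup signal gave 3 calls (3 higher), 23 (12 higher) without the Aquantile step, 11 (1 higher) in the deposited table and 0 after adjustment. It gave 17 (15 higher) with the 6 arrays alone, 7 (5 higher) with the replicate block and 48 (1 higher) with the slide block. The shares of all probes called for Sup were 2.98%, 4.35%, 9.84%, 0.00609%, 2.64%, 3.09% and 1.48% in that order. Leaving out a rat gave 4 (without BHD replicate 3) to 28 calls. The 28 without model replicate 1 had 2 higher, and the 28 without BHD replicate 1 were all higher. In these 3 fits 1.44%, 2.02% and 5.73% of all probes were called. Total signal gave 36 calls, 55 without the Aquantile step, 0 after adjustment, 56 with the 6 arrays alone and 76 with the slide block. By leaving out a rat it gave 14 (without model replicate 2) to 70 (without BHD replicate 2). Among all probes these total signal settings called 3.25%, 4.84%, 0%, 2.79%, 1.64%, 2.17% and 4.44%. Same-numbered model and BHD rats did not always correlate best with each other, so the replicate block is given as an alternative only; it changed no other count by over 1.5 times. The cause of each shift was not tested.

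The median over enriched probes of model minus control, -0.25, was -0.70 without normalization within arrays, -0.51 in the deposited table, 0.086 within slide 1, and -0.42 to -0.12 by leaving out a rat; over all probes the first 2 of these medians were -0.56 and -0.29. That of BHD minus control, -0.12, was -0.27 with centred processed signals, -0.49 in the deposited table, with -0.10 and -0.32 over all probes, and -0.18 to -0.07 by leaving out a rat. That of BHD minus model, 0.14, was 0.50 without normalization within arrays, where it was 0.51 over all probes, -0.03 and -0.06 with processed signals as given and centred, where all probes had -0.03 and -0.05, 0.0008 with normexp and median centring, 0.003 in the deposited table, and 0.01 to 0.30 by leaving out a rat. The rule itself gave 3171 probes at a threshold of 1, 929 at 2, 1119 after normexp and loess, and 1798 to 1961 with 1 control rat left out. The counts staying at or above 1.5 were 1195 to 1461 in model and 1326 to 1491 in BHD by leaving out a rat, and 1307 and 1341 with centred arrays.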

Other observations

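The same threshold picked probes of other name classes too. It was met by 25 of 199 uc. probes well above background in both channels on the control arrays (12.6%), 97 of 1731 ASRNV probes (5.6%), 67 of 1681 ASRN6AP1A probes (3.99%) and 15 of 1278 ASRN6SM probes (1.17%), beside 1813 of 18225 in the class described above (9.95%).

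Among probes with an accession, 6 of 35 met it (17.1%), and 5 of them could be paired with a gene symbol, so these show by name what a strongly enriched RNA in this cortex can be. Cdh2, the neural cadherin, had a processed log2(IP/Sup) of 2.99 ± 0.10 in control, 2.54 ± 0.51 in model and 2.67 ± 0.33 in BHD rats (SD, n = 3). Map2, the neuronal microtubule-associated protein, had 2.34 ± 0.27, 2.28 ± 0.21 and 1.91 ± 0.11. Trim2, an E3 ubiquitin ligase, had 2.25 ± 0.25, 2.24 ± 0.39 and 1.77 ± 0.12. Odf2l had 2.38 ± 0.06, 1.93 ± 0.50 and 2.19 ± 0.17, and its model replicate 1, at 2.49, was above every control. Ppp2r2b, a regulatory subunit of protein phosphatase 2A, had 1.91 ± 0.50, 0.94 ± 0.57 and 1.55 ± 0.50, with 2.48 in control replicate 1 and 0.76 and 0.48 in model replicates 2 and 3. For Cdh2, Odf2l and Ppp2r2b model replicates 2 and 3 were the lowest or among the lowest values, while for Map2 and Trim2 the BHD rats were. Control rats chose these genes as well, so no test against control is given.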
